A study of Mus musculus with 4 samples.

Results

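The genes described here are 144 annotated antisense genes with reads in mouse hippocampus, out of 2715 of that type and 52636 of all types in the deposited table. An antisense gene, in the GENCODE M21 annotation used here, is a noncoding gene that overlaps another gene on the opposite strand. A gene was taken where its mean over the 2 input libraries reached 5 CPM (each count divided by the library's total and multiplied by 1000000). These levels chose the genes, so they are described without a test. Of the other antisense genes, 1528 had no read in either library. Of all counts on antisense genes, those chosen held 62.4% in the less deeply sequenced (shallower) library and 68.5% in the more deeply sequenced (deeper) library.

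The libraries came from hippocampus of C57BL/6 mice at postnatal day 40 and are the inputs (lysate RNA taken before pull-down) of an RNA immunoprecipitation against YTHDF2. YTHDF2 is a cytoplasmic reader of the m6A mark on mRNA that promotes decay of the mRNAs it binds. The series has 4 samples, 2 inputs and 2 pull-downs from wild-type tissue with no treatment named, and its title gives the aim as finding YTHDF2 targets in this tissue. The pull-downs were not analysed here, so no binding by YTHDF2 is described, and a single group allows no test between groups.

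Antisense transcripts arise from the strand opposite a gene, commonly near its promoter, within its introns or past its 3′ end. Some are known to act on the locus they come from. Kcnq1ot1 is transcribed from the paternal chromosome and silences neighbouring imprinted genes, and Dlx6os1 (also called Evf2) takes part in the control of Dlx genes in forebrain interneurons. Most others have no known role, and many are retained in the nucleus.

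The shallower library held 2563069 counts and the deeper held 3334451. The libraries are named by depth because the column names do not carry the replicate numbers of the sample titles. The labels do not say that they came from different animals, so every SD here is over 2 libraries and may be technical. Markers of the labelled tissue were present: 6 neuronal genes summed to 6607 and 6529 CPM, 3 astrocyte genes to 4271 and 5650, and 3 oligodendrocyte genes to 3163 and 3113. Of the 2 choroid plexus markers Folr1 had 0 counts in both libraries, and the 2 together reached 2.73 and 2.1 CPM. The limit that a count of 0 allows, 3 counts, was 1.17 CPM (shallower) and 0.900 CPM (deeper). In bulk tissue, fewer cells that make a transcript and less of it per cell cannot be told apart.

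Whether reads were counted by strand is not given in the sources used here. Where the exons of an antisense gene and its sense gene share bases, reads of the pair can then not be told apart, and the shared bases show what this means in sequence. The longest shared stretch of up to 250 bases that holds no UTR is printed for 4 pairs on which later results turn. They are the imprinted Kcnq1ot1 and an antisense gene above its receptor gene per length but not by counts (Gm45441). The others are the pair whose sense gene had the most reads (B130046B21Rik) and a gene nearly absent from the deeper library (Gm11149). Each stretch is read from GRCm38, 5′ to 3′ on the antisense strand. Capitals mark bases that are exonic in both genes, and lower case marks 15 flanking bases. The reverse complement of the capitals is exon of the sense gene.
Kcnq1ot1: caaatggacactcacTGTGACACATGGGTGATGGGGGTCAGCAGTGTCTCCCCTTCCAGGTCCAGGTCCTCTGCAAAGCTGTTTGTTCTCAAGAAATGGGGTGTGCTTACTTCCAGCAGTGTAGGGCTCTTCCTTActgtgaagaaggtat
Gm45441: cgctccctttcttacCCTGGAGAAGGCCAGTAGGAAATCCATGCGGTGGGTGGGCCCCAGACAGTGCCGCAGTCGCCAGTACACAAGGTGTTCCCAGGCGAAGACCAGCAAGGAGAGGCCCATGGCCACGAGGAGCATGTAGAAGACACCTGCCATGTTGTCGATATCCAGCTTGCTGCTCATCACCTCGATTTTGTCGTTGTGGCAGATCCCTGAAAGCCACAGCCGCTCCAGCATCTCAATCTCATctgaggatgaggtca
B130046B21Rik: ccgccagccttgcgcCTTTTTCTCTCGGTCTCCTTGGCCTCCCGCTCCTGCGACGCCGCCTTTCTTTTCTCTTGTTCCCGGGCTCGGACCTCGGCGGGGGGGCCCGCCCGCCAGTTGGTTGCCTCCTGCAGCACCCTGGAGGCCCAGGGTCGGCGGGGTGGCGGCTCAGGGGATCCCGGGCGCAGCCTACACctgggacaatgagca
Gm11149: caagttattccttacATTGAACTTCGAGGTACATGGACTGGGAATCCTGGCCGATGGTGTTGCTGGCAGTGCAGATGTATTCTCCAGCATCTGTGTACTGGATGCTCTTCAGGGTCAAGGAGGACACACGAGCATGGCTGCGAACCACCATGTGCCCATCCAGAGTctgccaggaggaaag
The Kcnq1ot1 stretch lies at chr7:143261241-143261391 (minus strand) and is an exon of Kcnq1 read backwards. It makes up all 121 bases that this 93092-base transcript shares with exons of Kcnq1. The Gm45441 stretch lies at chr7:45834234-45834496 (plus strand) and faces Grin2d. The B130046B21Rik stretch lies at chr15:98807009-98807215 (plus strand) and faces Ddn. The Gm11149 stretch lies at chr9:49546143-49546323 (plus strand) and faces Ncam1. G and C made up 52.9% of the shared Kcnq1ot1 bases and 57.1% of those of Gm45441.

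The antisense genes were a small part of the RNA and were led by a few loci. They held 6716 of the shallower library's counts (0.262%, exact binomial 95% interval 0.256% to 0.268%) and 7397 of the deeper library's (0.222%, 0.217% to 0.227%). Their summed level was 2419 ± 284 CPM (SD, n = 2). The 4 with most reads made up 25% of that sum and the top 12 made up 43.4%. The median gene stood at 8.08 CPM, and 88 of the 144 lay below 10 CPM. Per length, the median was 3.98 FPKM (depth-scaled fragments per kilobase of gene length), with a range from 0.915 to 123. The length behind FPKM, worked out from counts and FPKM, was for some genes shorter than all their annotated exons. It was 1583 against 6821 bases for 4933431E20Rik and 1020 against 7141 for E130307A14Rik. All comparisons by FPKM here depend on that length. Intervals cover counting error only.

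Counts below are given for the shallower library first. B230334C09Rik, a single-exon gene of 8927 bases at chr3:158067186-158076112 on the minus strand, had 469 and 1001 counts, or 183 and 300.2 CPM (242 ± 82.9). The exact Poisson 95% intervals of those levels did not overlap, unlike those of the other 3 of the top 4. It runs into the 3′ end of Lrrc40, which had 18 and 50 counts. Grin1os, which lies inside the gene of the obligatory NMDA receptor subunit, had 437 and 538 counts (166 ± 6.47 CPM). Its levels of 170.5 and 161 CPM differed by less than counting error.

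4933431E20Rik, head-to-head with the glutathione S-transferase gene Gstm5, had 252 and 342 counts (100.4 ± 3.0 CPM). Tug1, a widely expressed long noncoding RNA, had 225 and 358 counts (97.6 ± 13.8 CPM) and starts 482 bases from the start of Morc2a, which encodes a chromatin-associated ATPase. Kcnq1ot1 had 232 and 213 counts, 90.5 and 63.9 CPM. Of these 3, 4933431E20Rik had like levels in the libraries, Tug1 was somewhat higher in the deeper and Kcnq1ot1 in the shallower. Because Kcnq1ot1 is very long, its CPM of 77.2 ± 18.8 corresponded to the lowest FPKM of the set, 0.915 ± 0.223.

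9530082P21Rik, at the 3′ end of Flywch1, had 199 and 254 counts. Gm15564, head-to-head with the importin gene Kpna1, had 129 and 231 counts and the highest level per length, 123 ± 27.6 FPKM. The length behind that FPKM was 486 bases, against 821 in all its annotated exons. Gm45774 faces the metallothionein gene Mt2 and had 161 and 164 counts, and 6330403L08Rik faces the growth factor gene Pdgfa and had 137 and 163. The last 3 of the top 12 were Gm38336 in Arhgef4 (107 and 173 counts), Gm26592 in Icam5, an adhesion molecule of forebrain neurons (111 and 123), and Gm20632 at a cluster of core histone genes (117 and 95). The plot of the 12 genes shows that intervals of the libraries overlapped for most of them.

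**Figure D1:**
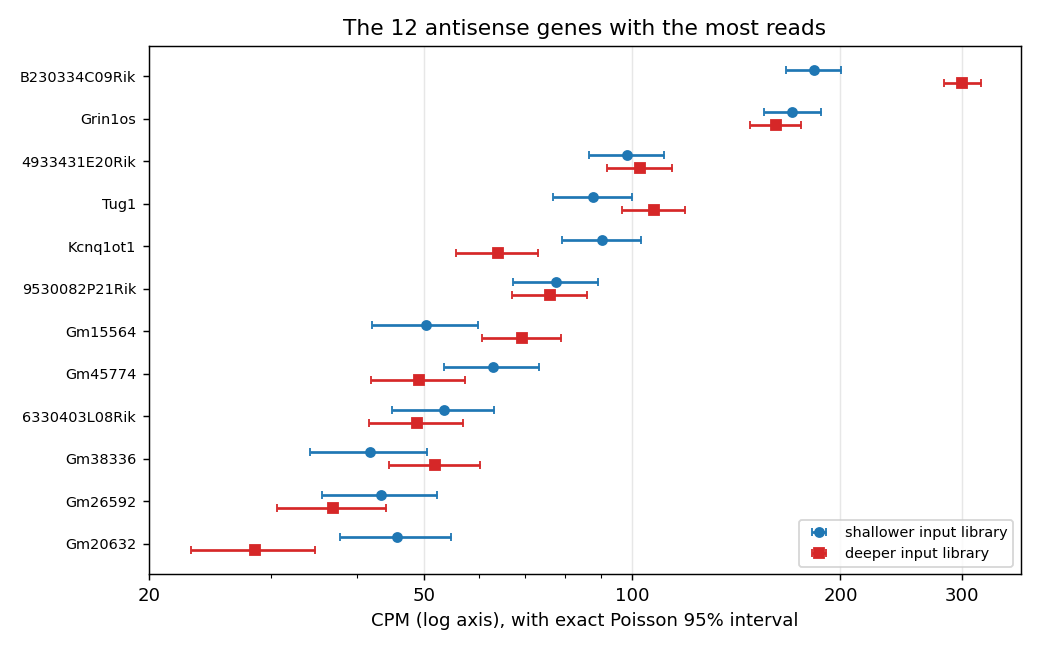
Levels of the 12 antisense genes with the highest mean CPM (log axis) in the shallower (circles) and deeper (squares) input library, with exact Poisson 95% intervals. B230334C09Rik leads with 183 and 300.2 CPM, and its intervals do not overlap.

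All but 5 of the antisense genes had a counterpart: 139 overlapped a gene on the opposite strand, each a different gene, and 137 of these sense genes were protein-coding. Where several overlapped, the most abundant was taken. Gm13111, Gm26833, Gm13375, B230369F24Rik and 2810001G20Rik had none among the genes in the table, at 5.52 to 16.0 CPM. Of the pairs, 55 had the antisense gene inside the sense gene, 44 were head-to-head (overlapping at their 5′ ends), 32 were tail-to-tail, and in 8 the antisense gene contained the sense gene. Exons of the pair shared bases in 121 pairs. In 25 pairs the annotated starts lay within 1000 bases of each other, and 24 of these were head-to-head.

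Per length, most antisense genes were well below their sense gene. On the scale log2(FPKM + 0.5), averaged over both libraries, the median antisense level was 2.37 below the sense level, which is 5.15-fold, and pairs ranged from -7.32 to 4.94. The antisense gene was the higher of the pair in 24 of 139 pairs. It was higher in both libraries in 23, lower in both in 111, and changed sides in 5. In 44 pairs it was at least 10-fold below the sense gene. Unscaled by length, 27 antisense genes had the higher CPM and the median log2 ratio was -2.67. By arrangement, the antisense gene was higher per length in 3 of 55 inside a sense gene, 8 of 44 head-to-head, 8 of 32 tail-to-tail and 5 of 8 that contained the sense gene.

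**Figure D2:**
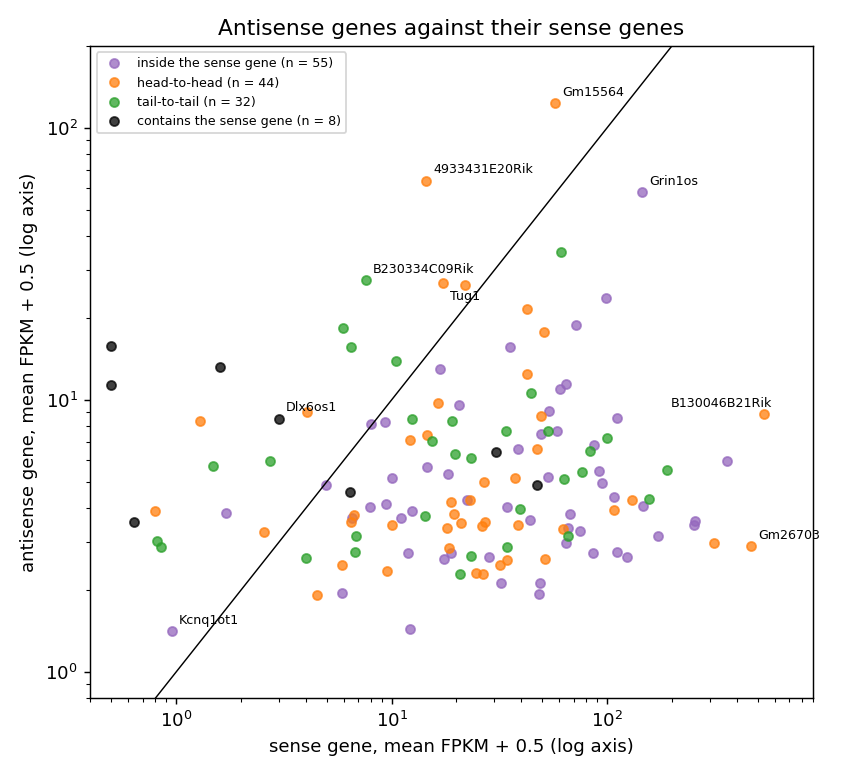
Mean FPKM + 0.5 of each antisense gene against its sense gene (log axes, 139 pairs), coloured by arrangement, with the line of equal levels. Most points lie below the line, and the 24 above it include 4933431E20Rik, Gm15564, Tug1 and B230334C09Rik.

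Ranked by CPM, unscaled by length, the pairs in which the antisense gene stood highest had sense genes with few reads. Kcnq1 had 2 and 0 counts against 232 and 213 for Kcnq1ot1, so nearly all reads of the pair were assigned to the antisense gene (99.1% and 100%). Per length, Kcnq1ot1 was 0.74 above Kcnq1 on the log2 scale (0.915 against 0.455 FPKM). That difference is uncertain, because Kcnq1 was below the floor of 3 counts and the added 0.5 is as large as its FPKM. Tmem147os was 3.15 above its sense gene Gapdhs on the same log2 scale. Hist2h2aa2 and Hist2h3b, core histone genes, had 0 counts in both libraries, where Gm20632 had 117 and 95 and Gm20628 had 108 and 91. For both histone genes 100% of exonic bases lie opposite an exon. Of protein-coding genes with over 90% opposite, 28.8% had a read. Whether the 0 counts of these histone genes reflect low levels was not tested. Tmc3 had 5 and 0 counts against 34 and 43 for Gm16638. Lrrc40, at 7.07 ± 3.62 FPKM, was better covered, and B230334C09Rik stood at 27.1 ± 9.28 FPKM, 1.91 higher on the log2 scale. In all, 15 of the 139 sense genes were below 5 CPM.

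Sense genes abundant in brain made up the other end. Sparcl1, which encodes a secreted astrocyte protein, had 2362 and 2684 counts against 15 and 17 for Gm26703 (463 ± 44.2 against 2.41 ± 0.234 FPKM). Add2, for the membrane skeleton protein beta-adducin, had 1849 and 2492 counts against 20 and 12 for Gm44089. Ddn encodes dendrin, a dendritic protein whose mRNA is known from dendrites. It had 5223 and 6600 counts against 51 and 57 for B130046B21Rik, a log2 FPKM difference of -5.93. Gnao1, for the G protein alpha-o subunit, had 1407 and 1709 counts against 37 and 5 for 4930488L21Rik. Ncam1, a neural cell adhesion molecule, had 774 and 950 against 25 and 1 for Gm11149. In each of these 5 pairs the antisense gene was lower in both libraries.

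Examples, picked after the pairs had been seen, follow by the known role of the sense gene. At genes of receptors and adhesion molecules, levels ranged widely. Gm45441 was the higher of its pair per length, at 15.1 ± 4.06 FPKM against 5.98 ± 0.803 for the NMDA receptor subunit gene Grin2d. By counts it was the lower, with 35 and 31 against 54 and 85. The length behind its FPKM was 759 of 1459 exonic bases, and 44.1% of its exonic bases are shared with Grin2d. Grin1os, in the gene of another NMDA receptor subunit, stood at 57.4 ± 2.24 FPKM against 144 ± 27.8 for Grin1. Gm9885 in the neurotrophin receptor gene Ntrk3 was far lower, with 22 and 17 counts against 1424 and 2243. Plxna4os2 lay in Plxna4, a semaphorin receptor gene, with 12 and 18 counts against 1214 and 1476. Gm26811 at Plxna1, for another plexin, was better covered, with 113 and 100 counts.

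Antisense genes at genes of synaptic signalling and membrane traffic included the following, each below its sense gene per length. 5031415H12Rik in the postsynaptic scaffold gene Dlgap1 had 16 and 23 counts against 1476 and 2046. Rapgef4os2 lies in Rapgef4, for a cAMP-activated exchange factor, and had 69 and 64 counts against 313 and 341. Ppp2r2cos lies in Ppp2r2c, for a regulatory subunit of phosphatase 2A, and had 25 and 22 against 1574 and 1953. These 3 antisense genes were each less than 2-fold apart between the libraries and below their sense gene in both.

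Others were Rab10os (50 and 42 counts) at the small GTPase gene Rab10, Atcayos (29 and 19) at Atcay, and Chn1os3 (31 and 14) at Chn1, for a Rac-inactivating protein. Pcsk2os1 (24 and 14) lies head-to-head with the prohormone convertase gene Pcsk2 (609 and 952). Dtnbos (23 and 12) lies in the dystrobrevin gene Dtnb, and Pitpnm2os2 (23 and 5) in Pitpnm2. All 6 had fewer counts in the deeper library than in the shallower.

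At genes of transcription factors, Dlx6os1 was the higher of its pair per length, with 50 and 106 counts (8.03 ± 2.72 FPKM) against 6 and 10 for Dlx6 (2.50 ± 0.435 FPKM). Emx2os lies head-to-head with Emx2, a homeobox gene of the developing cortex, and the pair had near-equal counts, 24 and 35 against 25 and 26. Per length Emx2os was the lower, at 1.98 ± 0.159 against 5.35 ± 0.844 FPKM. A830082K12Rik faces the nuclear receptor gene Nr2f1 with 50 and 52 counts against 187 and 163. 2810468N07Rik faces Sox8, a gene of the oligodendrocyte lineage, with 66 and 70 counts against 207 and 225. Both were less than 2-fold apart between the libraries. Zbtb11os1 had 31 and 19 counts against 123 and 123 for the zinc finger gene Zbtb11.

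At genes of RNA processing and decay, Srrm4os at Srrm4, for a neuronal splicing regulator, had 38 and 24 counts against 266 and 210. 4930513N10Rik overlaps Cnot1, the scaffold of the CCR4-NOT deadenylase that YTHDF2 is known to recruit, and had 22 and 8 counts against 439 and 491. Gm43579 was level with Ddx54, a helicase gene, at 7.64 ± 2.70 against 7.49 ± 2.06 FPKM, a difference within the spread of the libraries. Exons of Ddx54 lie opposite 66.5% of its exonic bases, where reads of the pair may not be told apart. The near-equal levels may therefore hold the same reads, which was not tested.

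Of the other genes with names, these were below the sense gene taken for them: Ube4bos1 (37 and 34 counts, Ube4b 187 and 284), Phtf1os (20 and 35, at Rsbn1), Prkag2os2 (23 and 15, in a gene for an AMP-activated kinase subunit), Anxa11os (20 and 11), Uckl1os (13 and 21, at Zfp512b), Slain1os (12 and 18) and Tomm6os (20 and 9). Brip1os had 42 and 27 counts and lies at the 3′ end of Med13, a Mediator subunit gene, which had 281 and 430. AI115009 (15 and 23) and Etohd2 (21 and 19) lie head-to-head with Ak5 and Isca1. Tmem147os, Fbxl12os and Panct2 stood above the sense gene taken for them, with 29 and 36, 17 and 15, and 20 and 11 counts. The sense genes of those 3 had at most 6 counts in a library.

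Of 26 antisense or noncoding RNAs listed for their known roles, 25 matched a gene and 14 were annotated as antisense. Kcnq1ot1, Dlx6os1, Emx2os and Pcsk2os1 reached 5 CPM. The other 10 did not. Tsix, the antisense partner of Xist, Hotairm1 and Wt1os had 0 counts in both libraries. The imprinted antisense RNAs Airn (3 and 0) and Nespas (1 and 0) were close to 0 in counts, against 232 and 213 for Kcnq1ot1. These counts are not scaled by length, and Kcnq1ot1 spans 93092 exonic bases. Uchl1os had 3 and 0 counts, Dnm3os 4 and 3, Zeb2os 4 and 2, and Nkx2-2os 4 and 0. Pcsk2os2 had 18 and 0. Adora2aos matched no gene name. Of the 11 with another annotated type, Snhg14, the long transcript that runs antisense to Ube3a, had the most counts, 1005 and 966.

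At the threshold, Gm11149 (5.03 CPM), Plxna4os2 and Slain1os (both 5.04 CPM) were just inside. 1500015A07Rik (20 and 7 counts, 4.95 CPM), Gm44832 (19 and 8, 4.91 CPM) and Gm15774 (15 and 13, 4.88 CPM) were just outside. Gm11149 and 1500015A07Rik, the nearest on either side, had 26 and 27 counts in total.

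The share of antisense genes with a read differed with how much of their exons faced another gene's exon. Among all 2715 antisense genes, a read was counted in 38.5% of those with no base opposite an exon, in 53.0% of those with up to 50% of their exonic bases opposite, in 37.8% of those with 50 to 90%, and in 4 of 111 (3.60%) of those with more. Protein-coding genes with over 90% opposite had a read in 17 of 59 cases (28.8%), against 61.8% with none. The antisense genes past 90% were short, with a median of 532 exonic bases. Of the 57 whose sense gene reached 20 CPM, 3 had a read, against 288 of 449 (64.1%) with no base opposite. The sense genes' FPKM over the shared bases amounted to 1356 CPM in sum, and the 57 antisense genes held 8.34 CPM. The 1356 CPM can be too high, because the length behind FPKM can be shorter than all annotated exons. How the counter treated reads that fall on exons of 2 genes was not tested.

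**Figure D3:**
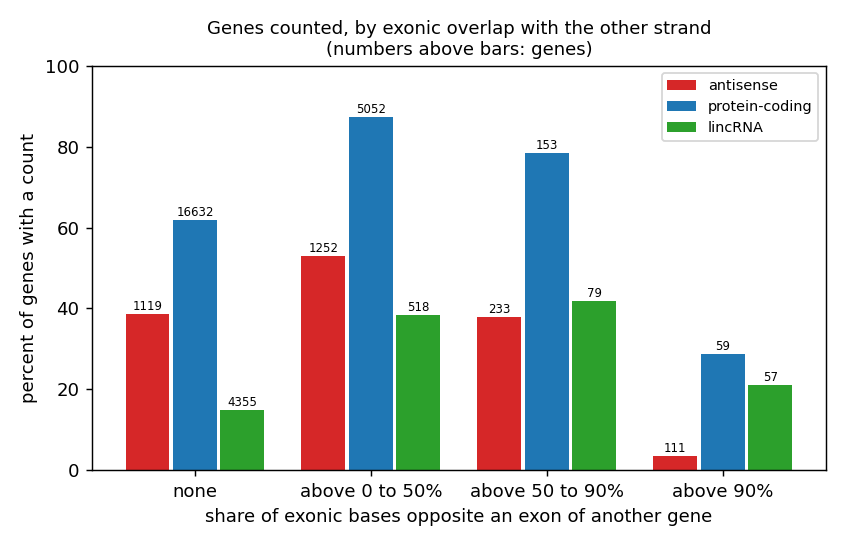
Percent of genes with a count in either input library, by the share of exonic bases opposite an exon of another gene, for antisense, protein-coding and lincRNA genes. The bar for antisense genes falls to 3.60% in the last bin, where 111 genes lie.

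The 144 genes themselves were opposite an exon over a median of 17.7% of their bases. For 21 no base was opposite, and for 14 over 50% was. A630072M18Rik was the only member above 90%, with 95% opposite Rsbn1l, and it was also the gene with the largest gap between libraries, 40 and 0 counts. In 68 of the 121 pairs that share exonic bases, the sense gene's FPKM over those bases came to more CPM than the whole antisense gene had, and in 13 it came to over 5 times more. Such values can be too high, because shared bases were taken over all annotated exons and FPKM over a length that can be shorter. For Ssbp2, opposite 4833422C13Rik, the value was 58.8 CPM, above the 45.1 CPM of the whole gene. The counts of 68 and 13 share this limit. For B130046B21Rik the 177 bases shared with Ddn, printed above, correspond to 95.1 CPM of Ddn, against 18.5 ± 1.98 CPM counted for the antisense gene. For Gm44089 and Add2 the values were 90.1 and 5.70 CPM. For Kcnq1ot1 the shared exon corresponds to 0.0550 CPM of Kcnq1, against 77.2. As if no read on shared bases had been counted, each gene's whole count was divided by its bases opposite no exon alone. This made 40 of 136 antisense genes the higher of the pair, with a median log2 difference of -1.15. The reads themselves could not be restricted to those bases. This alternative was chosen after the data were seen. Its lengths cover all annotated exons, unlike those of FPKM, so its median cannot be set against the FPKM median as an effect of shared bases. Gm9885 and Ntrk3, neither with a base opposite an exon, differed by -6.18 by FPKM and by -2.65 here.

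Sequence copies touched few members. For 138 of the 144, under 10% of transcript 31-mers occurred in another gene outside the overlap. Gm27177 shared 100% with Gm16867, an annotated protein-coding gene, so its 83 and 51 counts are uncertain. Gm20632 shared 47.1% with other genes, chiefly Gm20633 (8 and 4 counts), so its level is uncertain too. Gm20628 shared 15.1%, chiefly with Gm20634. Exons of 7 members overlapped another gene on the same strand, among them Tug1 (4 such genes), Gm20632, Dlx6os1 and Tmem147os. How reads on those bases were counted is not given, so the levels of the 7 carry that limit.

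Between the libraries, antisense genes with levels near the threshold were often lower in the deeper, but the way they were chosen limits what this shows. The ratio is the difference in log2(CPM + 0.5), deeper minus shallower, after scaling by edgeR's TMM factors (trimmed means that align the libraries). The genes were chosen by their mean CPM over these same libraries, and a mean of 5 CPM can be reached through 1 library alone, so the ratio is not independent of the choice. Of the 144 genes, 90 reached 5 CPM in each library, 44 in the shallower alone and 10 in the deeper alone. Over all 144 the median ratio was -0.35, and 100 were below 0. The median of all 12218 genes at 5 CPM or more was -0.00019, that of all genes at 5 to 20 CPM -0.11, and that of genes at 5 CPM or more of the type TEC (loci awaiting experimental proof of a transcript) -0.34. For the 90 genes the median was -0.16, an alternative chosen after the data were seen, against 0.02 for the 11173 genes of all types that reached 5 CPM in each library. At least 2-fold apart were 31 genes, 6 higher in the deeper and 25 higher in the shallower library. For all genes at 5 CPM or more the shares were 9.53% in all, 3.64% higher in the deeper and 5.88% higher in the shallower. Each of the 31 ratios had an exact binomial 95% interval that excluded equal levels. Yet 24 of the 25 were below 5 CPM in the deeper library and 5 of the 6 below it in the shallower, so these entered through the library where they were high, and the counts support no difference between the libraries. Among the 90 genes 2 were 2-fold apart, E530011L22Rik higher in the deeper and 4732440D04Rik (38 and 21 counts) in the shallower. Of all genes at 5 CPM or more in each library, 5.36% were. Requiring 5 CPM in both libraries caps the ratio of genes near that level, so a low share follows in part from the rule. Genes of all types were also more abundant (at a mean of 5 CPM or more, median 24.7 CPM against 8.08 for antisense genes). The shares of the 90 and of all genes are therefore not alike.

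Low levels held these differences. All 31 lay among the 118 antisense genes below 20 CPM, where 21.2% were at least 2-fold higher in the shallower and 5.08% in the deeper library. Of all genes at 5 to 20 CPM, 16.8% were 2-fold apart, 11.0% higher in the shallower and 5.81% in the deeper. In the same band 20.8% of lincRNAs and 27.1% of TEC genes were 2-fold higher in the shallower. None of the 26 antisense genes at 20 CPM or more was 2-fold apart, against 3.93% of all genes at that level (1.98% higher in the deeper and 1.95% in the shallower), and their summed level was 1419 and 1413 CPM. An interval excluding equal levels was reached by 12 members higher in the deeper (8.33%) and 40 higher in the shallower library (27.8%). Over all genes at 5 CPM or more these shares were 18.6% and 17.9%, and the same limit on the choice of genes holds. At 5 to 20 CPM they were 5.08% and 28.8% for antisense genes, 10.1% and 17.65% for all genes, and 7.81% and 30.7% for TEC genes. The part of library composition or RNA quality in this was not tested.

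**Figure D4:**
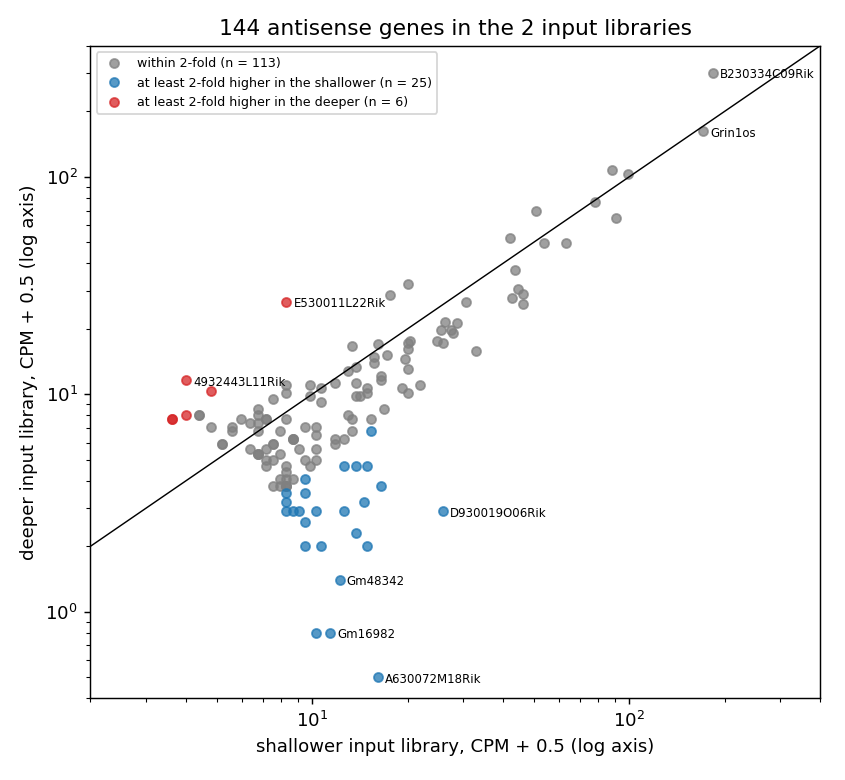
CPM + 0.5 of the 144 antisense genes in the shallower (x) and deeper (y) input library on log axes, with the line of equal levels and colours by the TMM-scaled ratio. The 25 genes at least 2-fold higher in the shallower library lie below the line at low CPM, with A630072M18Rik (40 and 0 counts) the farthest.

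At least 4-fold apart were 10 antisense genes, all higher in the shallower library. All 10 had at most 2.70 CPM in the deeper library and entered the set through levels of 8.97 to 25.4 CPM in the shallower. Of all genes at 5 CPM or more, 1.52% were 4-fold apart, 0.908% higher in the shallower and 0.614% in the deeper. D930019O06Rik, head-to-head with Creg2, had 65 and 8 counts, a log2 ratio of -3.03 (95% interval -4.53 to -2.19). Creg2 itself, at 311 and 517 counts, had a ratio of 0.50. A630072M18Rik was at least 15.7-fold higher in the shallower library, against a floor of 3 counts in the deeper. With counting error on its 40 counts, the exact interval reached down to 12.2-fold. Gm16982 in Ap2a2, for a clathrin adaptor subunit, had 28 and 1 counts, 33.0-fold with an interval from 5.45 to 1348. Gm11149 had 25 and 1 (29.4-fold, 4.82 to 1208), and Gm48342 in Hmgcs1, a cholesterol synthesis gene, 30 and 3 (11.8-fold, 3.66 to 60.3).

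The other 5 were 4930488L21Rik (37 and 5 counts), Gm6277 (34 and 6), 0610039K10Rik (26 and 5), Pitpnm2os2 (23 and 5) and D830024N08Rik (36 and 9). In the other direction E530011L22Rik, opposite the zinc finger gene Zfp651, had 20 and 87 counts, a log2 ratio of 1.82 (1.17 to 2.67). 4932443L11Rik, opposite Evi5l, had 9 and 37 counts. Both were higher in the deeper library, while the ratio of Zfp651 was -0.19 and that of Evi5l -0.69.

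For 124 sense genes at 5 CPM or more the median ratio was 0.02, and 3 were at least 2-fold apart: Lrrc40 (18 and 50 counts), Bdh1 (29 and 90) and A330023F24Rik (228 and 130). Across the 124 pairs, the ratio of the antisense gene and that of its sense gene had a Pearson correlation of -0.057. The points share both libraries and their depths, so this is a description. The sense genes were also far more abundant, and at 5 to 20 CPM there were only 22 of them, with a median of -0.14.

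**Figure D5:**
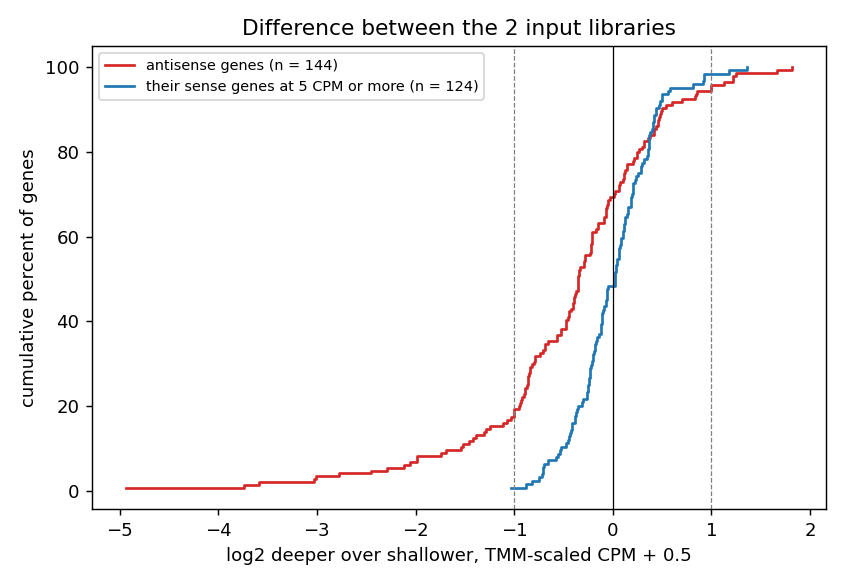
Cumulative percent of genes by log2 ratio of the deeper over the shallower input library (TMM-scaled CPM + 0.5), for the 144 antisense genes and 124 of their sense genes, with dashed lines at 2-fold. The antisense curve lies to the left, with a median of -0.35 against 0.02, and its left tail reaches past -4.

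Promoter windows of 300 bases around the start were available from RefSeq (GRCm38.p6) for 62 members, 70 windows in all. They were rich in CG dinucleotides, with a median of 11.5 a window against 7 for all promoters, 14 for protein-coding genes and 5 for antisense genes below 5 CPM. The median G and C content was 58%. The motif TATAAA, searched on both strands, occurred in 5.71% of members' windows and 13.6% of all. CCAAT occurred in 44.3% against 37.4%, GGGCGG in 42.9% against 35.7%, and TGACGTCA in 0 of 70 against 1.79%. GGGCGG stood at 47.8% in windows of protein-coding genes and 24.1% in those of antisense genes below 5 CPM. For CCAAT these shares were 37.8% and 32.0%, and for TATAAA 12.2% and 10.7%. The promoter of Kcnq1ot1, the imprinted antisense RNA with the best-known role here, is shown at chr7:143296498-143296797 on the minus strand, with capitals marking each CCAAT.
Kcnq1ot1: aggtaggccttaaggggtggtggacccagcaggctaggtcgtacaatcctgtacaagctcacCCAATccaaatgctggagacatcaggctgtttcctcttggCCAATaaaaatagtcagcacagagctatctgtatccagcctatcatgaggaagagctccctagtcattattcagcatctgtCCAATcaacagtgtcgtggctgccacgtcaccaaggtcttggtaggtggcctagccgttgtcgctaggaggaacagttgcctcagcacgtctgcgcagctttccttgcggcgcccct
It holds 3 CCAAT, all in the orientation of the gene. At least 3 on either strand were found in 2 of the 70 windows, those of Kcnq1ot1 and Gm15743, and in 3.37% of all windows. Such matches describe the letters and are not evidence of binding.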

How the data were processed

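For the 2 input libraries, the authors deposited 2 tables by gene, of raw read counts and of FPKM (counts scaled to depth and gene length). The number of unused columns was 0. Per the submitters' processing notes, BWA 0.7.12, MACS2 2.1.0, HOMER and GRCm38 were used. Not given in the sources used here are the counter, its strand and multi-mapping settings and the annotation. Names, types and exons came from GENCODE M21, which held 52489 of 52636 gene IDs. Both members and lists were chosen with earlier results of these data known. Named are the 12 members with most CPM, those without Gm or Rik names, those 4-fold apart, the 5 highest and lowest pairs by CPM, the 3 on each side of the threshold, and 26 listed RNAs. The other genes named in the text were chosen after their values were seen.

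CPM used the total count of each library. TMM factors (edgeR 4.0.16; 1.05 shallower, 0.951 deeper) scaled the log2 ratios between libraries, computed from the deposited counts with 0.5 added to CPM. Ratios of pairs used the deposited FPKM with 0.5 added. Intervals are exact Poisson or binomial (scipy 1.17.1) and leave out the 0.5. With 1 group no test was made. Alternatives were other thresholds, scalings, pseudocounts, partner rules and each library alone.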

Additional observations from a re-analysis of the deposited data

How the results depend on the processing

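Of 45 alternatives, 32 kept the value within a set band or within 1.5 times, 13 moved it, and 0 reversed a direction. None has a test. The band was the library spread, except for the median ratio between libraries. For that ratio it was an interval across the antisense genes, -0.446 to -0.215. Genes are not replicates, so staying within that interval says nothing about library spread. A minimum of 10 CPM gave 56 genes, 2 CPM gave 353, and 5 CPM in each library gave 90. Leaving mitochondrial, rRNA, 7SL and 7SK genes out of the total raised the sum to 2923 CPM. The median ratio between libraries was -0.49 without TMM factors, where all genes had -0.141, and -0.18 at 20 CPM or more. At 10 CPM 3 genes were 2-fold apart, and at 20 CPM 0 (2-fold calls with no test). At 5 CPM in each library (added after the data were seen), 2 of 90 were 2-fold apart and the median ratio was -0.16. That minimum itself limits how far apart genes near it can be. The median log2 antisense over sense CPM was -2.27 with sense genes that share an exon. Per kilobase of annotated exon opposite no exon it was -1.15 (added after the data were seen), which also brings in a scaling by length. With each library alone, the number of genes was 111 to 179, the sum 2218 to 2620 CPM, pairs with the antisense gene higher 25 to 27, and the median pair log2 ratio -2.77 to -2.31. No paired analysis was possible because the 1 group analysed carries no replicate numbers in its columns. Depth limits the lowest members most: Gm11149 rests on 26 counts in all.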
